A study of Mus musculus with 2 samples.

Results

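Genes that mark the origin or the layer of dermal fibroblasts are described here in 2 single-cell RNA libraries of mouse back skin wounds. The 10 members are *En1*, *Prrx1*, *Twist1*, *Twist2*, *Tbx15*, *Dpp4*, *Dlk1*, *Crabp1*, *Mest* and *Lef1*, and they were taken by gene symbol from the 31053 genes of the deposited count matrices, without use of their measured values. All 10 were found under 1 identifier each and had UMIs in both libraries. A UMI (unique molecular identifier) stands for 1 RNA molecule captured from its 3′ end, so that counts do not scale with gene length.

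Wound tissue was recovered with a 10 mm punch at day 5 from C57BL/6 mice aged 7 to 9 weeks, and live cells (7AAD-negative) of pooled mice were captured without a sort for any cell type. By the sample labels, both groups carry *Mrc1-DTR*, a transgene in which the *Mrc1* (CD206) promoter drives a receptor for diphtheria toxin, and the control group received PBS whereas the DTX group received diphtheria toxin, which kills cells that express the receptor. The methods describe the control mice instead as wild-type mice given diphtheria toxin, and the paper's text gives the cell numbers of the libraries to the opposite groups. The libraries are called control and DTX here after the labels, and every direction below rests on them. The paper reports a larger proportion of immune cells in *Mrc1-DTR* than in control wounds. Macrophage-like cells, as named from markers here, were 21.5% of the control and 67.1% of the DTX cells kept, which is the same order. Each group is 1 library with no biological replicate, so no difference between the groups can be tested, and all intervals below are 95% intervals that cover counting error only, not differences between mice or captures.

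Fibroblasts of the back skin dermis descend from mesoderm whose progenitors express the homeobox gene *En1* (Engrailed 1), and a progenitor pool splits into an upper papillary and a lower reticular and adipogenic branch. *Prrx1* is a homeobox factor of limb, facial and ventral mesenchyme, *Twist1* and *Twist2* are basic helix-loop-helix repressors that mesenchymal cells share, and *Tbx15* is a T-box factor that patterns dorsal and ventral skin. *Dpp4* encodes CD26, a dipeptidyl peptidase at the cell surface that has been used to isolate *En1*-lineage fibroblasts. *Dlk1* encodes a membrane protein related to Notch ligands and marks lower dermal fibroblasts of the fetus, and *Mest* encodes a hydrolase-like protein of the endoplasmic reticulum. Both are imprinted and active in embryonic mesenchyme. *Crabp1* binds retinoic acid in the cytoplasm and marks papillary and hair-associated fibroblasts, and *Lef1* is the DNA-binding partner of beta-catenin and marks the papillary branch and the dermal papilla.

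In the annotation of the mm10 genome (GRCm38, GENCODE), *En1* (ENSMUSG00000058665) lies on chromosome 1 at 120602418-120607992, *Prrx1* on chromosome 1 at 163245119-163313710 and *Twist2* on chromosome 1 at 91801461-91848028. *Twist1* lies on chromosome 12 at 33957671-33959829 and *Dlk1* on chromosome 12 at 109452823-109463336. *Tbx15* is on chromosome 3 at 99240381-99354259 and *Lef1* on chromosome 3 at 131110471-131224356, *Dpp4* on chromosome 2 at 62330073-62412231, *Crabp1* on chromosome 9 at 54764748-54773110 and *Mest* on chromosome 6 at 30723547-30748465. All are protein-coding, and only *Prrx1* overlaps another counted gene on the same strand (*Gm26523*). RefSeq promoter windows of 300 bases, from 250 bases before to 50 after a start, were held for 9 members in 14 entries. The windows of *Crabp1*, the member with the largest difference between the libraries, of *Dlk1* and *Mest*, which shared 1 fibroblast cluster, and of *En1*, which defines the lineage, are printed 5′ to 3′ with E-boxes (CANNTG, the core that Twist proteins recognise as dimers) in capitals.
*Crabp1*, GRCm38.p6 chr9:54764498-54764797, plus strand: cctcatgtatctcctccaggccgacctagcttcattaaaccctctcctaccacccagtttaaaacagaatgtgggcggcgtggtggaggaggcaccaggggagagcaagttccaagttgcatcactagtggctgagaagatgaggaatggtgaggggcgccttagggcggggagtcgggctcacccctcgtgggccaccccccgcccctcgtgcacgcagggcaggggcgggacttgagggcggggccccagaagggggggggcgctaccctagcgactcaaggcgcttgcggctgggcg
*Dlk1*, GRCm38.p6 chr12:109452573-109452872, plus strand: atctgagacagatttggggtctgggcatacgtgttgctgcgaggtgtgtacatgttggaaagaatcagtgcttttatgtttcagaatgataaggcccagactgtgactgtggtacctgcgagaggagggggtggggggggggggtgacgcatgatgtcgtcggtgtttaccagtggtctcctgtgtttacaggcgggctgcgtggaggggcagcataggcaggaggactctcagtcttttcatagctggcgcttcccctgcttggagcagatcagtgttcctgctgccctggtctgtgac
*Mest*, GRCm38.p6 chr6:30737800-30738099, plus strand: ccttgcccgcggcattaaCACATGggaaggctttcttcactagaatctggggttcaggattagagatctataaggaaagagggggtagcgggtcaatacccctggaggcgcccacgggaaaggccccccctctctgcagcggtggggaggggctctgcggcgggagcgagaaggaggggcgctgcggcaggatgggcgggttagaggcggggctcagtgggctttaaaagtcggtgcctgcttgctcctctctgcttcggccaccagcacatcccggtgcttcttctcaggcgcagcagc
*En1*, GRCm38.p6 chr1:120602237-120602536, plus strand: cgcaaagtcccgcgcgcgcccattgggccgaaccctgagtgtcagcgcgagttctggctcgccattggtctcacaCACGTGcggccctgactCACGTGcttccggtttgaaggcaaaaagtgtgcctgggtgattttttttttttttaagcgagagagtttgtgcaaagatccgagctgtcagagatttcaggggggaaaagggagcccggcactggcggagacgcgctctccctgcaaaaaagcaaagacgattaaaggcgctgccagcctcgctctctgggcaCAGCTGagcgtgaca

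The *En1* window held 3 E-boxes and the *Mest* window 1, and those of *Crabp1* and *Dlk1* held 0. An E-box on either strand was present in 9 of the 14 member windows, which belong to 4 of the 9 members (*En1*, *Dpp4*, *Lef1* and *Mest*). It was in 72.3% of all 32851 windows, so that its presence was common in promoters at large. The homeodomain core TAATTA was in the window of *Prrx1* alone (5.29% of all windows), the T-box core GGTGTGA in none (3.98%), the LEF/TCF core CTTTGA in *Lef1* alone (16.0%), and the TATA box TATAAA in *Dpp4*, *Lef1* and *Twist1* (13.6%). The member windows were richer in CpG, with a median of 17.0 CpG dinucleotides against 7.0 over all windows. *Lef1* and *Mest* had several windows each, some of them overlapping, and so weigh more in these counts.

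After filters on genes per cell and mitochondrial UMIs and the removal of doublets, 7944 control cells (81235634 UMIs) and 6613 DTX cells (54872675 UMIs) were kept, of which 3064 and 656 were fibroblast-like. Median depth was 11177 UMIs per fibroblast-like cell in the control library and 13978 in the DTX library. The fibroblast label was given from 10 markers, all raised in each of the 2 clusters that carry it, so these markers are no separate check of it. The fibroblast-like cells had few UMIs of *Rgs5*, the pericyte marker (3.80 and 5.35 CPM against 4606 and 5903 CPM in pericyte-like cells). CPM is UMIs of a gene scaled to a fixed total of 1000000 over all UMIs of the cells summed. The libraries shared 37 cell barcodes, 13 of them among kept cells. The summed level of 6 immune genes in the fibroblast-like cells was 182 CPM in control and 777 CPM in DTX cells, and that of *Mrc1* was 2.94 and 15.2 CPM.

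The 5 transcription factors of mesenchyme were carried by fibroblast-like cells and pericyte-like cells. *Prrx1* was the most abundant member, at 526 CPM (interval 519 to 534) in control and 463 CPM (449 to 477) in DTX fibroblast-like cells. Pericyte-like cells, the contractile cells around capillaries, held as much of it in the control library, at 526 CPM (479 to 575), and more in the DTX library, at 663 CPM (625 to 703). *Tbx15* likewise did not separate the classes, at 31.5 CPM (29.7 to 33.5) in control fibroblast-like and 36.9 CPM (25.4 to 51.8) in control pericyte-like cells, and at 42.1 CPM (38.1 to 46.4) and 50.6 CPM (40.4 to 62.6) in the DTX library.

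*En1* reached 152 CPM (148 to 156) and 125 CPM (118 to 132) in fibroblast-like cells of the control and DTX libraries, and pericyte-like cells held 45.6% (34.9 to 58.6) and 73.6% (61.8 to 87.1) of that level. *Twist1* was at 118 CPM (115 to 122) and 98.0 CPM (91.8 to 104) in fibroblast-like cells, with 44.4% and 48.0% of that in pericyte-like cells. *Twist2* was at 276 CPM (270 to 281) and 240 CPM (231 to 250), with 22.7% and 27.0% in pericyte-like cells. The share of the fibroblast level that pericyte-like cells held was thus highest for *Prrx1* and *Tbx15*, lower for *En1* and *Twist1* and lowest for *Twist2*, and the intervals of *En1* and *Twist1* overlapped in the control library only.

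*Crabp1* stood at 148 CPM (144 to 152) in control and 334 CPM (322 to 345) in DTX fibroblast-like cells, and at 8.95 CPM (3.86 to 17.6) and 1.19 CPM (0.144 to 4.30) in pericyte-like cells, from 8 and 2 UMIs. *Dlk1* had the opposite preference. It was at 7.80 CPM (6.90 to 8.78) and 8.13 CPM (6.44 to 10.1) in fibroblast-like cells, and at 66.0 CPM (50.2 to 85.1) and 98.2 CPM (83.8 to 114) in pericyte-like cells, so that pericyte-like cells carried 846% and 1208% of the fibroblast level. The *Dlk1* counts came from few cells, since 6 of 61 control and 28 of 112 DTX pericyte-like cells had a UMI of it, and 1 control cell held 49.2% of the 59 UMIs.

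*Dpp4*, at 78.1 CPM (75.2 to 81.1) and 47.2 CPM (43.0 to 51.8) in fibroblast-like cells, was also present in dendritic-like cells, at 24.3 CPM (19.8 to 29.5) in the control and 42.3 CPM (36.8 to 48.4) in the DTX library. Dendritic-like and macrophage-like cells together with the other classes held 42.2% of all *Dpp4* UMIs in the DTX library, against 7.89% in the control library, whose kept cells were 38.6% fibroblast-like against 9.92%. *Mest* was mostly outside the fibroblasts, with 56.3% and 60.7% of its UMIs in classes that were neither fibroblast-like nor pericyte-like. T-like cells, which were led by *Cd3g* and *Trdc* and numbered 41 and 29, held 631 CPM (529 to 746) and 861 CPM (735 to 1003), and endothelial-like cells 585 CPM (539 to 633) and 156 CPM (129 to 186), against 16.9 CPM (15.6 to 18.4) and 20.2 CPM (17.4 to 23.2) in fibroblast-like cells. *Lef1* was close to the detection limit in fibroblast-like cells, at 1.23 CPM (0.889 to 1.65) from 43 UMIs and 1.34 CPM (0.712 to 2.29) from 13 UMIs, and was highest in NK-like cells, at 29.7 CPM (21.4 to 40.2) and 30.2 CPM (21.3 to 41.6). The leading genes of that cluster held the T-cell genes *Trbc1*, *Trbc2* and *Icos* beside *Gzma*, *Gzmb* and *Nkg7*, so that it was not of NK genes alone.

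Among the 7 other classes with at least 50 cells in both libraries, 3 of 10 members (*Twist1*, *Twist2* and *Crabp1*) were at least 2-fold higher in fibroblast-like cells than in every class in both libraries, against 3.44% of the 11813 genes with at least 50 UMIs in fibroblast-like cells. With pericyte-like cells set aside, 7 of 10 met this limit, against 6.51% of all genes, and the 3 that did not were *Dpp4*, *Mest* and *Lef1*. The clusters were made without the members and named from fixed marker lists that hold none of them. Genes of 1 cell class are still not independent of each other, so these counts are a description.

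**Figure D1:**
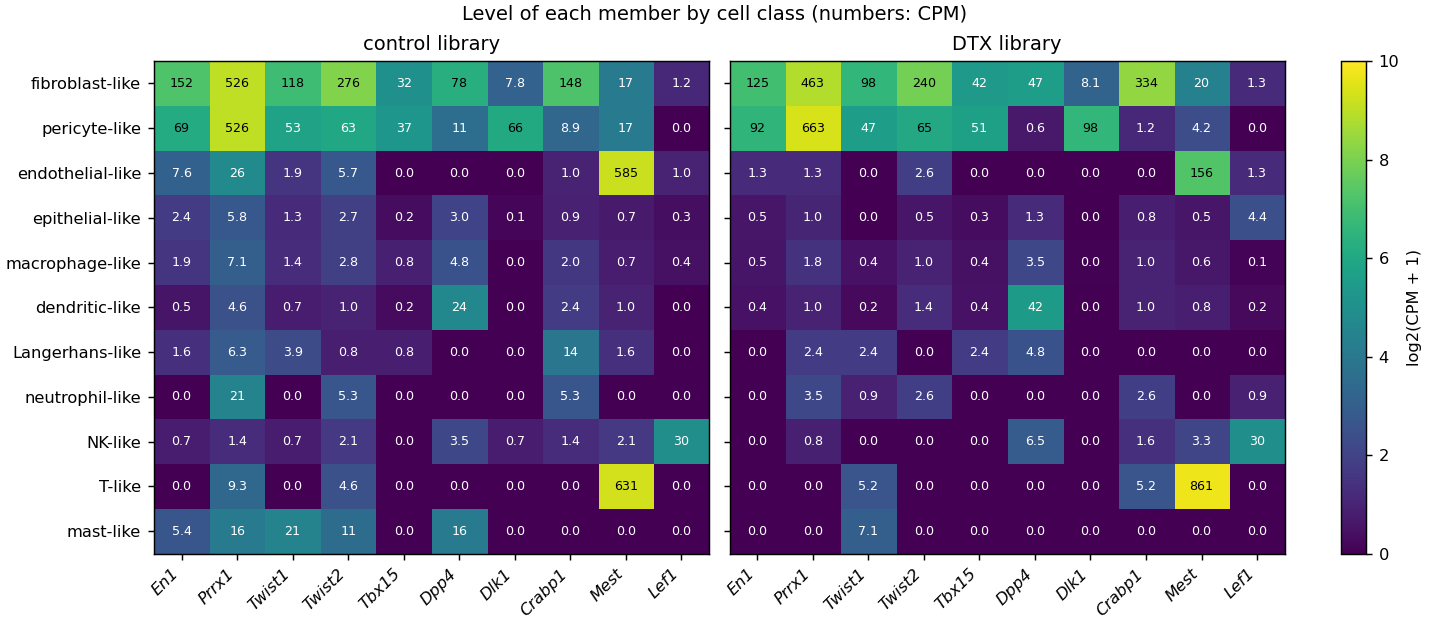
Colour map of the level of each member (columns) in 11 cell classes (rows) of the control and DTX libraries; colour gives log2(CPM + 1) and the printed number the CPM. *En1*, *Prrx1*, *Twist1*, *Twist2* and *Tbx15* are brightest in the fibroblast-like and pericyte-like rows, *Dlk1* in pericyte-like, *Mest* in endothelial-like and T-like and *Lef1* in NK-like cells.

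Macrophage-like cells, which should lack mesenchymal factors, give the background of these levels. In them *Prrx1* was at 7.07 CPM (control) and 1.79 CPM (DTX), 1.34% and 0.388% of the fibroblast level. *En1* (1.26% and 0.393%), *Twist2* (1.00% and 0.407%) and *Crabp1* (1.38% and 0.303%) lay at like shares. *Dpp4* lay above them, at 6.14% (4.37 to 8.38) and 7.46% (5.99 to 9.22). After every cell was thinned to 2000 UMIs, 1.48% of 1482 control macrophage-like cells and 0.419% of 4301 DTX cells had a UMI of *Prrx1* (median depths before thinning of 4715 and 6730 UMIs), against 59.9% of 2982 and 55.2% of 650 fibroblast-like cells.

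The fibroblast-like cells were next divided into clusters, again without the members. Cluster 0 (854 control and 299 DTX cells) was led by *Sfrp2* and *Mfap5*. It was named fascia-like from 5 of 10 listed markers, *Plac8*, *Mfap5*, *Prg4*, *Pi16* and *Anxa3*. Cluster 1 (1026 and 95 cells) was led by *Igfbp2* and *Grem1* with raised *Gpnmb* and *Ctsk* and stayed unnamed. Cluster 2 (662 and 54 cells) was led by *Ctla2a* and *Gpx3*. It was named reticular-like from only 3 of 8 listed markers, *Clec3b*, *Gpx3* and *Cxcl12*. *Mgp*, another marker of the reticular list, was instead among the leading genes of cluster 0, so the name is tentative. Cluster 3 (456 and 139 cells) was led by *Coch* and *Fmod*, with stress genes such as *Hspa1a* and *Fos* among its leading genes, and stayed unnamed. Cluster 4 (46 and 45 cells) was led by the immune genes *Cd74* and *Lyz2*, with 4465 and 7848 CPM of the 6 immune genes, and cluster 5 (20 and 24 cells) by *Apod* and *Ccl11*. The last 2 were left out of the subset comparisons for their small size.

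The imprinted members belonged to cluster 0. All 273 control and 79 DTX UMIs of *Dlk1* in fibroblast-like cells lay there, at 21.5 CPM in the control library and with an interval of 11.9 to 18.7 CPM in the DTX library. They came from 38 and 10 cells, and 1 cell held 39.9% of the control UMIs and another 39.2% of the DTX UMIs. The 0 UMIs in clusters 1, 2 and 3 allow levels of up to 0.298, 0.394 and 0.788 CPM in the control library. *Mest* followed the same pattern with more cells, at 44.1 CPM (40.5 to 47.9) and 34.3 CPM (29.5 to 39.7) in cluster 0, from 128 and 36 cells. In the control library *Mest* was at 0.893, 0.394 and 1.84 CPM in clusters 1, 2 and 3, and in the DTX library it had 0 UMIs in all 3. In both libraries, 2 of 10 members (*Dlk1* and *Mest*) were at least 2-fold higher in cluster 0 than in the other fibroblast-like cells, against 4.50% of all genes, and 2 (*Twist1* and *Twist2*) were at least 2-fold lower, against 3.67%.

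Within cluster 0, the pericyte marker *Rgs5* was at 3.32 CPM in the 38 control cells with a *Dlk1* UMI and at 6.12 CPM in the 816 cells without, and the summed level of the 10 pericyte markers was at 522 and 370 CPM. In the DTX library the sums were 78.4 CPM in the 10 cells with *Dlk1* and 413 CPM in the 289 without. *Rgs5* there was at 11.2 and 7.27 CPM. The sum did not keep its direction between the libraries. The *Rgs5* levels in the cells with *Dlk1* rest on very few UMIs, so no direction is read from them. *Acta2*, which is on the list, held most of the sum in the control library, at 431 CPM with *Dlk1* and 261 CPM without. In the DTX library *Acta2* was at 295 CPM without *Dlk1* and far lower with it. The direction of the sum therefore followed *Acta2* and does not describe the other markers. *Postn*, a matrix protein of wound fibroblasts, was at 4330 CPM in the cells with *Dlk1* and 2057 CPM in those without, and in the DTX library at 2202 and 1403 CPM. *Mest* behaved alike for *Postn*, which was at 3727 CPM in the 128 cells with a UMI and 1876 CPM in the 726 without in the control library, and at 2970 and 1229 CPM in the DTX library. It differed from *Dlk1* in the pericyte sum, at 559 and 343 CPM with and without *Mest* (control) and 699 and 363 CPM (DTX). *Acta2* was at 423 and 240 CPM (control) and 462 and 262 CPM (DTX). *Rgs5* was at 3.53 and 6.44 CPM with and without *Mest* (control) and at 1.64 and 8.15 CPM (DTX). In the cells with *Mest* these levels again rest on few UMIs, so no direction is read from them.

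*Dpp4* was highest in cluster 0, at 115 CPM (109 to 121) in the control and 61.5 CPM (55.0 to 68.5) in the DTX library, then in cluster 1 (68.1 and 44.7 CPM), cluster 2 (52.0 and 21.1 CPM) and cluster 3 (33.6 and 22.1 CPM). The intervals of the clusters did not overlap in the control library, and in the DTX library those of neighbours in this order overlapped throughout. *Tbx15* was at 41.6 CPM (38.1 to 45.3) in cluster 0 and 44.4 CPM (38.0 to 51.6) in cluster 3 of the control library, which do not differ beyond counting error, and at 23.6 and 19.3 CPM in clusters 1 and 2. In the DTX library cluster 0 stood highest, at 49.3 CPM (43.5 to 55.7), and cluster 3 lowest, at 28.6 CPM (20.4 to 38.9), and the intervals of clusters 0, 1 and 2 overlapped.

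*En1*, *Prrx1* and *Twist2* were instead lowest in cluster 0 and highest in cluster 2 of the control library. *En1* was at 232 CPM (222 to 243) in cluster 2, 191 CPM (183 to 200) in cluster 1, 116 CPM (105 to 127) in cluster 3 and 87.5 CPM (82.4 to 92.8) in cluster 0. In the DTX library clusters 2 and 1 again led, at 185 CPM (155 to 220) and 167 CPM (145 to 190), while clusters 0 and 3 did not differ beyond counting error (120 and 118 CPM). *Twist2* ran from 125 CPM (119 to 131) in cluster 0 to 419 CPM (405 to 434) in cluster 2 of the control library, and from 148 CPM (138 to 159) to 487 CPM (437 to 541) in the DTX library, where cluster 1 at 413 CPM (379 to 449) did not differ from cluster 2 beyond counting error. *Prrx1* ran from 349 CPM (339 to 360) to 678 CPM (660 to 697) in the control library, and in the DTX library from 412 CPM (395 to 430) in cluster 0 to 615 CPM (575 to 658) in cluster 3. *Twist1* was highest in cluster 3 (195 and 226 CPM) and lowest in cluster 0 (57.8 and 57.5 CPM), with cluster 1 at 189 CPM (181 to 198) level with cluster 3 in the control library only.

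*Crabp1* was lowest in cluster 2 of the 4 clusters, at 20.6 CPM (17.5 to 24.1) and 16.9 CPM (8.71 to 29.4). It was at 122, 240 and 262 CPM in clusters 0, 1 and 3 of the control library and at 209, 845 and 478 CPM in those of the DTX library. Cluster 1 was thus at least 2-fold above the other fibroblast-like cells for *Crabp1* in both libraries, 1 of 10 members against 1.75% of all genes, with *Dlk1* and *Mest* at least 2-fold lower (6.09%). In cluster 2, 0 of 10 members were at least 2-fold higher (0.753%) and 3 were at least 2-fold lower, *Dlk1*, *Crabp1* and *Mest* (8.04%). In cluster 3, 0 of 10 were at least 2-fold higher (2.76%) and 3 were at least 2-fold lower, *Dpp4*, *Dlk1* and *Mest* (3.04%). Cluster 0 held all *Dlk1* UMIs and most *Mest* UMIs and was among the cells compared. The lower calls of *Dlk1* and *Mest* in clusters 1, 2 and 3 therefore repeat the result in cluster 0. *Lef1* had between 0 and 25 UMIs in any of these clusters, and its highest level was 5.00 CPM (2.01 to 10.3) in cluster 3 of the DTX library, from 7 UMIs.

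**Figure D2:**
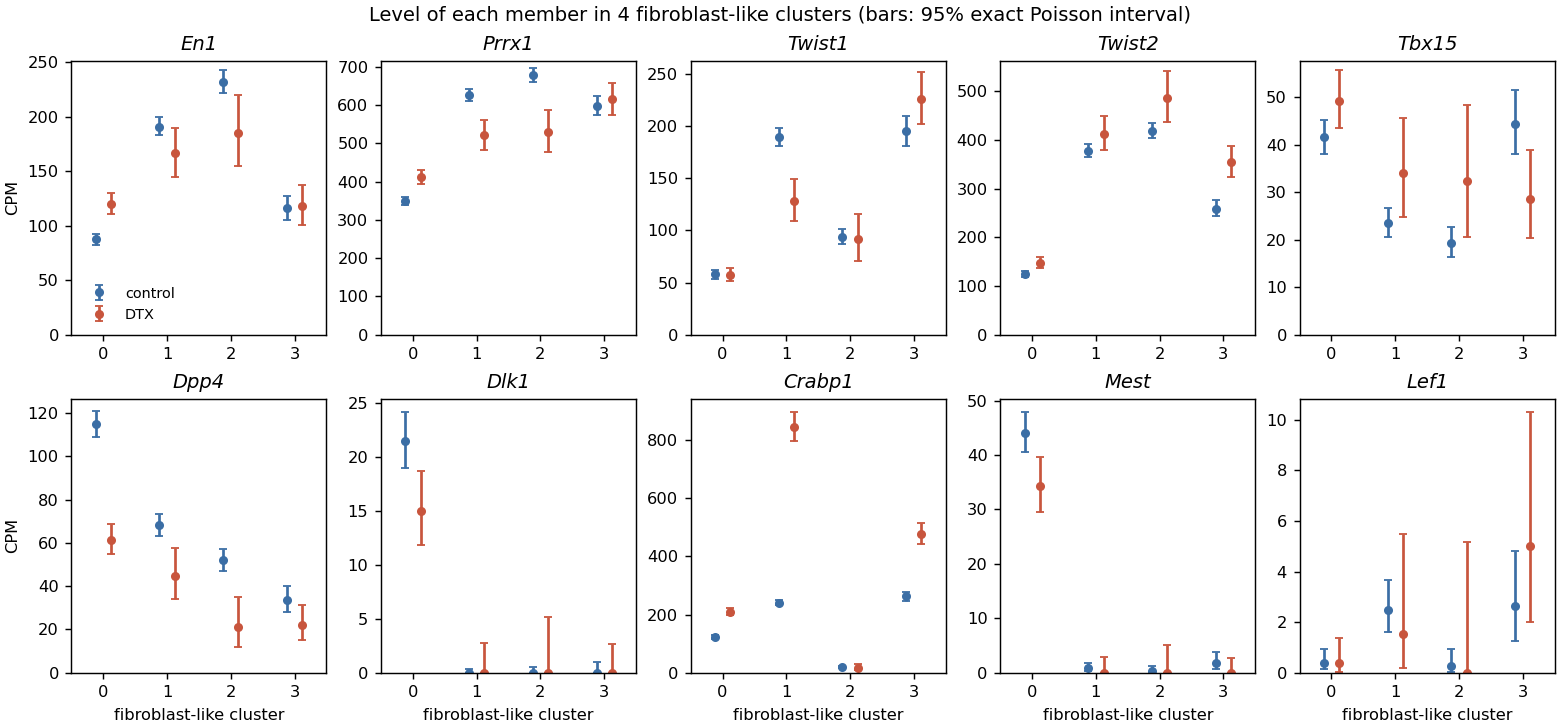
Level of each member in CPM (y axis from 0, 1 panel a gene) in fibroblast-like clusters 0 to 3 (x axis) of the control (blue) and DTX (red) libraries; bars are 95% exact Poisson intervals. *Dlk1* and *Mest* are near 0 outside cluster 0, *Crabp1* is lowest in cluster 2, and *Dpp4* is lower in the DTX library in all 4 clusters.

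Finer clusters (resolution 0.4) divided these patterns further. Cluster 0 separated into a part led by *Ifi27l2a* and *Mgp* with *Prg4* and *Pi16* (582 control and 213 DTX cells) and a myofibroblast-like part led by *Acta2* and *Spp1* (249 and 77 cells). The first held *Dpp4*, at 169 and 89.3 CPM against 17.0 and 7.55 CPM in the myofibroblast-like part, and the second held *Crabp1*, at 266 and 511 CPM against 5.67 and 14.1 CPM. *Mest* was at 70.6 and 62.9 CPM in the myofibroblast-like part and at 32.2 and 19.6 CPM in the other, and *Dlk1* was at 12.6 and 3.14 CPM against 27.2 and 21.3 CPM. The highest *Crabp1* levels were found in a cluster led by *Igfbp2* and *F13a1* (146 and 19 cells, 919 and 2501 CPM) and in a small cycling cluster led by *Stmn1* (22 and 10 cells, 1048 and 1197 CPM). The former also had the highest *Lef1*, at 9.98 CPM in the control library, and 0 in the DTX library. *Crabp1* itself was kept out of this clustering.

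The fibroblast-like cells of the libraries were then compared, which by the labels differ in toxin and by the methods in genotype. Of the 10 members, 1 was at least 2-fold higher in the DTX library (*Crabp1*), against 2.66% of the 11813 genes. At least 2-fold lower were 0 members, against 1.38% of the genes. These calls depended on the filter on cells. The methods also state a ceiling on genes per cell, which was not set for the values here. With only cells of at most 2000 genes (534 control and 61 DTX fibroblast-like cells), *Crabp1* was at 0.59, *En1* (-1.18) and *Dpp4* (-1.44) were at least 2-fold lower, and 9 of the 10 members lay outside their interval over all fibroblast-like cells. The median log2 ratio of DTX over control, with 1 CPM added to each level, was -0.07 over the members and 0.12 over all genes. Scaling by the median of gene ratios in place of total UMIs lowered every ratio by 0.13 before the 1 CPM was added, and by less for members at few CPM.

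*Crabp1* had 5174 control and 3242 DTX UMIs in fibroblast-like cells, and a log2 ratio of 1.17 (interval 1.11 to 1.24). The difference was present in clusters 0 (0.77, interval 0.67 to 0.89), 1 (1.81, interval 1.71 to 1.92) and 3 (0.87, interval 0.73 to 1.01), and was not detectable in cluster 2 (-0.28, interval -1.28 to 0.55), where the DTX library had 12 UMIs. Cluster 1 carried the largest of these ratios with 95 DTX cells. At resolution 0.4, control *Crabp1* was at 474 CPM in a cluster led by *Coch* and *Fmod*, as cluster 3 is. It was at 85.9 CPM in a cluster led by *Fos* and *Atf3*, with 96.9% of its cells from cluster 3. These finer clusters had 237 and 228 control cells and 112 and 30 DTX cells. The part of this mix in the cluster 3 ratios of any member was not tested. Both the share of cells with *Crabp1* and the number of UMIs in them were higher. At 2000 UMIs per cell, 11.4% (10.3 to 12.6) of control and 19.4% (16.4 to 22.6) of DTX fibroblast-like cells had a UMI, with 2.83 and 3.60 UMIs per such cell, and unthinned shares were 19.7% and 30.6%. The cells with the most *Crabp1* held 110 UMIs in the control and 160 UMIs in the DTX library. Few cells carried most of the gene, since 62 of 3064 control cells and 25 of 656 DTX cells held 50% of its UMIs. The intervals of *Crabp1*, pooled and within clusters, therefore understate the error.

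*Dpp4* had the lowest ratio, -0.71 (-0.87 to -0.58), from 2734 and 459 UMIs. It was lower in the DTX library in each of the 4 clusters, at -0.89 (-1.08 to -0.72) in cluster 0, -0.60 (-1.02 to -0.22) in cluster 1, -1.27 (-2.16 to -0.57) in cluster 2 and -0.58 (-1.22 to -0.03) in cluster 3. In the control library *Dpp4* was at 13.5 CPM in the finer cluster led by *Coch* and *Fmod* and at 52.5 CPM in that led by *Fos* and *Atf3*. The former was the larger in the DTX library (112 against 30 cells), and in the control library they were near in size (237 and 228). The part of this mix in the ratio of cluster 3 was not tested. The share of cells with a *Dpp4* UMI at 2000 UMIs per cell was 12.1% in the control and 7.38% (5.49 to 9.67) in the DTX library, and its UMIs per such cell were 1.19 and 1.23. *Dpp4* protein (CD26) was used by the study to gate fibroblasts in flow cytometry, which was not applied to the cells of these libraries.

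The mesenchymal factors differed less. *En1* (-0.28, interval -0.38 to -0.20), *Twist1* (-0.27, interval -0.38 to -0.17), *Twist2* (-0.20, interval -0.26 to -0.13) and *Prrx1* (-0.18, interval -0.23 to -0.14) were lower in the DTX library, and *Tbx15* was higher (0.40, interval 0.25 to 0.58). The pooled direction held in some clusters and not in others. *Prrx1* was lower in the DTX library in clusters 1 (-0.26, interval -0.38 to -0.15) and 2 (-0.36, interval -0.51 to -0.21), *En1* in cluster 2 (-0.32, interval -0.59 to -0.07), with -0.20 (-0.41 to 0.00) in cluster 1, and *Twist1* in cluster 1 (-0.56, interval -0.80 to -0.34). In cluster 3, *En1* (0.02) and *Prrx1* (0.04) did not differ beyond counting error and *Twist1* was higher (0.21, interval 0.02 to 0.40). In cluster 0, *Twist1* was at -0.01 (-0.21 to 0.19), whereas *En1* (0.45, interval 0.31 to 0.60), *Prrx1* (0.24, interval 0.17 to 0.31) and *Twist2* (0.24, interval 0.12 to 0.37) were higher in the DTX library. *Twist2* was at or above 0 in all 4 clusters, with ratios of 0.24, 0.13 (-0.01 to 0.26), 0.22 (0.05 to 0.38) and 0.45 (0.30 to 0.61), although the pooled ratio was below 0. Cluster 0, in which *Twist2* was lowest, made up 27.9% of control and 45.6% of DTX fibroblast-like cells, and cluster 1 made up 33.5% and 14.5%. With the DTX clusters weighted by the control mix of clusters, the ratio of *Twist2* was 0.22, of *Prrx1* -0.10, of *En1* -0.06 and of *Twist1* -0.18, while those of *Crabp1* (1.37) and *Dpp4* (-0.85) were larger in size than the pooled ones. *Tbx15* was higher in the DTX library in clusters 0, 1 and 2 and lower in cluster 3 (-0.62, interval -1.17 to -0.13). The mix of finer clusters within cluster 3 differed between the libraries, and its part in these ratios was not tested.

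For *Mest* the pooled ratio was 0.24 (0.01 to 0.49), and within cluster 0, which held 560 of 593 control and 181 of 196 DTX UMIs, it was -0.35 (-0.61 to -0.12). Single cells held 8.09% of its control and 10.7% of its DTX UMIs in fibroblast-like cells, so the intervals of *Mest* understate the error. *Dlk1* was at 0.05 (-0.32 to 0.43) in the pool and at -0.49 (-0.90 to -0.15) in cluster 0, and since single cells held 39.9% and 39.2% of its UMIs these intervals understate the error. A difference in *Lef1* was not detectable at this depth (0.07, interval -0.90 to 1.04). Under scaling by the median of gene ratios, *Dlk1* (-0.06) took the other sign, *Lef1* was at 0, and the remaining members kept theirs, with *Crabp1* at 1.04 and *Dpp4* at -0.84.

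**Figure D3:**
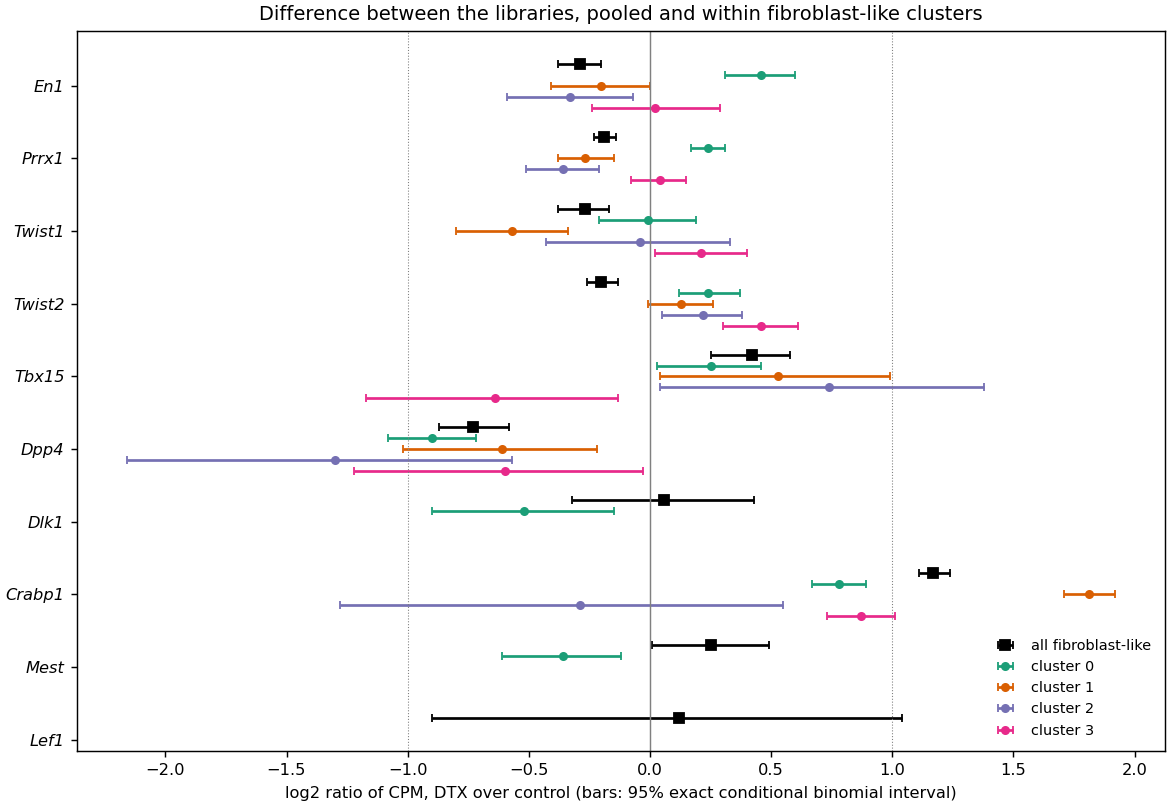
Log2 ratio of CPM, DTX over control (x axis), for each member (y axis) over all fibroblast-like cells (black squares) and within clusters 0 to 3 (coloured circles), shown where at least 50 UMIs and a finite interval were available; bars are 95% exact conditional binomial intervals and dotted lines mark 2-fold. *Crabp1* lies right of 0 in all but cluster 2, *Dpp4* left of 0 in every cluster, and the pooled square of *Twist2* lies left of all its circles.

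**Figure D4:**
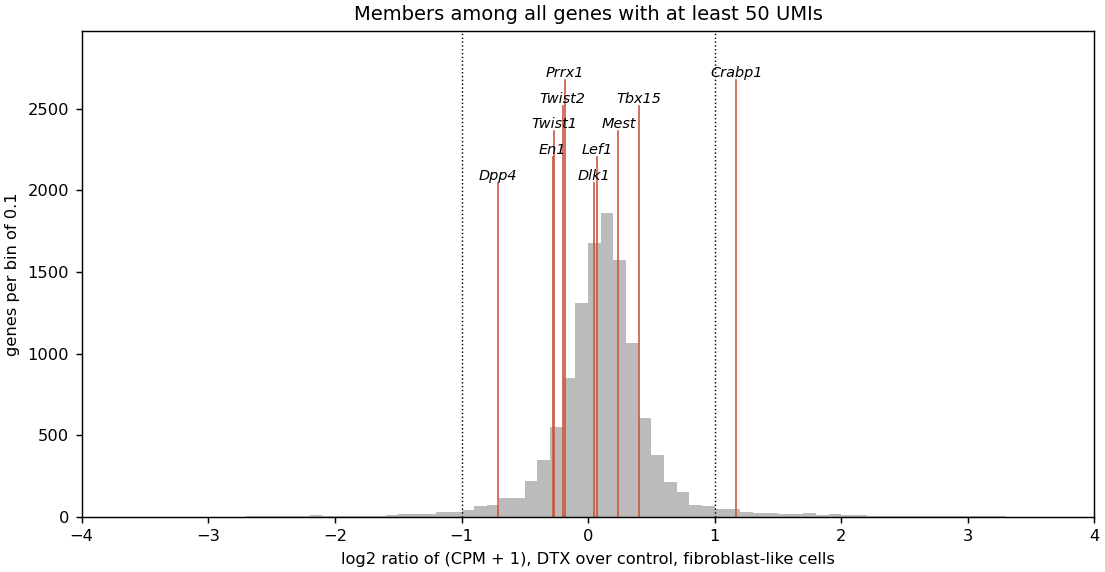
Distribution of the log2 ratio of DTX over control in fibroblast-like cells, with 1 CPM added, over the 11813 genes with at least 50 UMIs (grey bars, genes per bin of 0.1), with the 10 members as red lines and 2-fold as dotted lines. *Crabp1* at 1.17 is the only member past a dotted line.

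In pericyte-like cells (61 control and 112 DTX cells) *Prrx1* was higher in the DTX library, with a ratio of 0.33 (0.18 to 0.49), as was *Dlk1* (0.57, interval 0.14 to 1.03), whose control count rests on 6 cells. *En1* (0.40, interval -0.03 to 0.85), *Tbx15* (0.44, interval -0.14 to 1.08), *Twist1* (-0.16, interval -0.70 to 0.39) and *Twist2* (0.05, interval -0.43 to 0.54) did not differ beyond counting error. The summed level of the 10 fibroblast markers in these cells was 17447 CPM (control) and 11956 CPM (DTX), and *Dcn* was at 1522 and 271 CPM. The part of such RNA in the pericyte ratios was not tested.

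At 2000 UMIs per cell, a fibroblast-like cell showed a median of 2.0 members in both libraries, and 5 members were the most seen in any cell. None of the 10 was seen in 12.9% of 2982 control and 17.7% of 650 DTX cells, and 5 in 0.604% and 0.923%. In cluster 0, 23.0% and 24.7% of cells showed none, and in cluster 1, 7.23% and 3.23%. *Prrx1* was detected in 59.9% (58.1 to 61.7) and 55.2% (51.3 to 59.1) of fibroblast-like cells, *Twist2* in 37.2% and 30.3%, *En1* in 22.8% and 18.5%, *Twist1* in 21.0% and 17.5%, *Tbx15* in 5.84% and 7.38%, *Mest* in 1.58% and 1.85%, *Dlk1* in 0.436% and 0.769%, and *Lef1* in 0.134% and 0.615%. Unthinned, *Prrx1* was seen in 92.3% and 90.9% of cells and *En1* in 58.4% and 56.2%, so that these shares describe depth as much as expression.

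In 2 of the 45 pairs of members, the second gene was more frequent in cells with the first gene than in cells without it in both libraries. A pair was counted where the intervals of these shares were separate. Pairs of other genes were not counted in this way, so the counts of pairs are a description. Cells with *Twist2* had *Crabp1* in 14.5% (12.5 to 16.7) of control and 27.4% (21.3 to 34.2) of DTX cells, and cells without *Twist2* in 9.61% and 15.9% (12.6 to 19.6), with separate intervals in each library. Within cluster 0 the control shares were 14.6% (9.52 to 21.2) and 5.39% (3.83 to 7.36), with separate intervals, and the DTX shares 18.9% (9.44 to 32.0) and 8.23% (5.10 to 12.4), with overlapping ones. In cluster 3 they were 24.2% and 14.1% in the control and 32.8% and 26.2% in the DTX library, where the intervals overlapped in both. Within cluster 1 the difference was smaller (20.0% and 17.7% in the control, 46.7% and 45.8% in the DTX library, with overlapping intervals). Cells with *Dlk1* had *Mest* in 4 of 13 control and 2 of 5 DTX cells, and cells without *Dlk1* in 1.45% (1.05 to 1.95) and 1.55% (0.746 to 2.83). Within cluster 0 alone, the intervals for *Mest* were 9.09 to 61.4% with *Dlk1* and 3.26 to 6.23% without in the control library, and 5.27 to 85.3% and 1.19 to 5.34% in the DTX library, where they overlapped.

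Taken by itself, the control library had 6 pairs that were together more often, these 2 included, and 3 less often, and the DTX library had 3 and 0. *En1* went with *Prrx1*, which was in 68.2% (64.6 to 71.7) of cells with *En1* and 57.5% (55.4 to 59.5) of cells without, and with *Twist2* (45.6% against 34.7%). In the DTX library the intervals overlapped for both, with *Prrx1* in 56.7% (47.3 to 65.7) and 54.9% (50.6 to 59.2) and *Twist2* in 35.8% and 29.1%. Within cluster 0 of the control library the shares were 46.2% and 45.2% for *Prrx1* and 20.2% and 18.4% for *Twist2*, with overlapping intervals. *Dpp4* and *Crabp1* were seldom in the same cell, as 4.16% (2.34 to 6.76) of control cells with *Dpp4* had *Crabp1* against 12.4% (11.2 to 13.8) of those without. In the DTX library the shares were 14.6% (6.07 to 27.8) and 19.8% (16.7 to 23.2), from 7 cells with both, and a difference was not detectable. Within cluster 0 the pair was in 2 of 164 *Dpp4* cells in the control library and in 0 of 30 in the DTX library. The 432 control cells of cluster 0 with an unthinned *Dpp4* UMI had 1484 CPM of *Pi16*, a marker of fascia and adventitial fibroblasts, against 211 CPM in the 422 without, and the 106 with a *Crabp1* UMI had 166 CPM against 1003 CPM in the 748 without. *Acta2*, the actin of myofibroblasts, ran the other way, at 110 and 443 CPM with and without *Dpp4* and at 620 and 207 CPM with and without *Crabp1*. The DTX library showed the same order, with *Pi16* at 1337 CPM with *Dpp4* and 118 CPM with *Crabp1*.

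**Figure D5:**
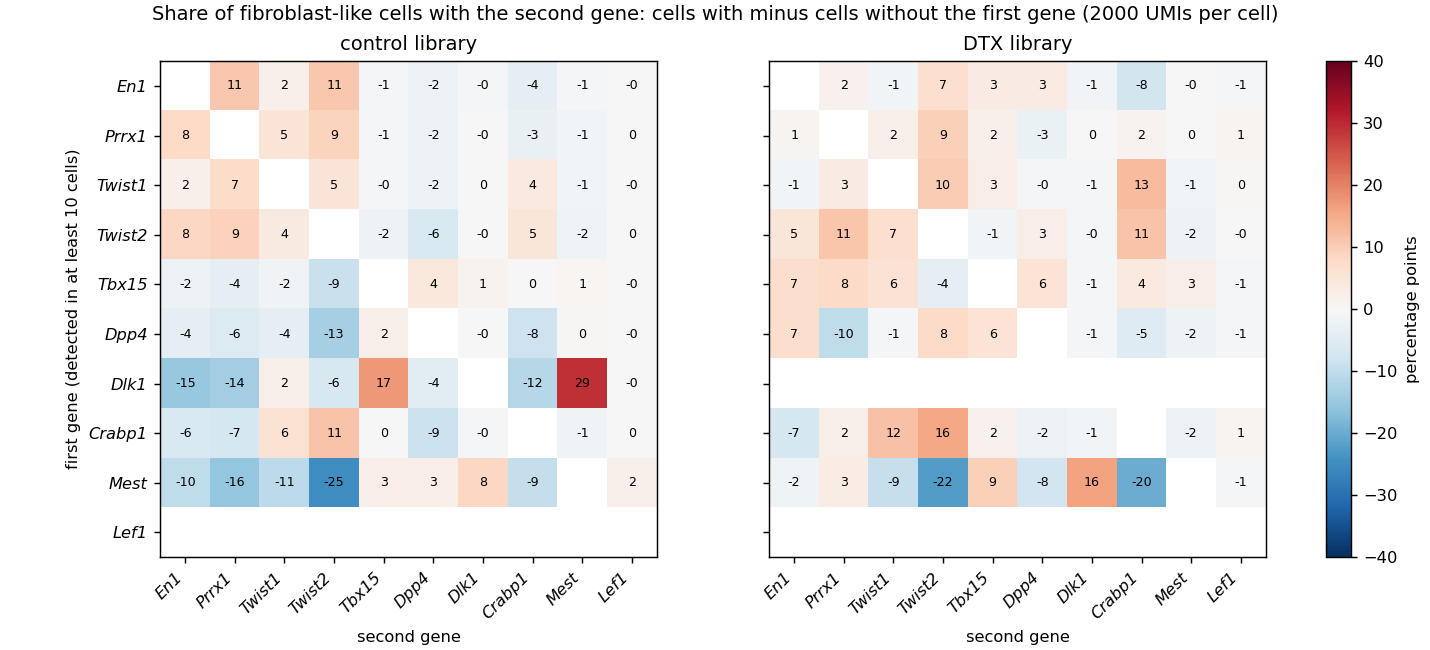
Difference, in percentage points, between the shares of fibroblast-like cells with the second gene (columns) among cells with and without the first gene (rows), at 2000 UMIs per cell, for the control and DTX libraries; rows with under 10 cells are blank. *Mest* was in 30.8% of control cells with *Dlk1* and 1.45% of those without, and *Twist2* in 47.2% of control cells with *Crabp1* and 35.9% of those without.

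The genes whose level ran most like that of each member were sought over the 17 combinations of class and library with at least 50 cells, among 12142 genes. The points share libraries and free RNA, so the correlations are a description. *Prrx1* ran with *Col6a1*, *Col6a3* and *Cygb* (Pearson's r of 0.99 each) and *En1* with *Pdgfrl* (0.99), *C2* and *Sobp* (0.98). *Twist1* ran with *Scn7a*, *Lama2* and *Scarf2* (0.98), *Twist2* with *Fgf7* (0.99), *Ptx3* and *Col5a1* (0.98), and *Tbx15* with *Smarca1*, *Epha3* and *Slc4a3* (0.99). *Dlk1* ran with *Col6a5* (1.00), *Hspb2* and *Daam2* (0.99), *Crabp1* with *Tmem132c* and *Ccbe1* (0.95) and *Rspo4* (0.94), and *Mest* with the endothelial genes *Tmem204* and *Ramp2* (0.96) and *Fat4* (0.95). T-like cells, the class with the highest *Mest* in both libraries, had under 50 cells and were not among these combinations. The partners of *Mest* therefore describe the remaining classes only. *Dpp4* had the weakest partners, *Plxdc1* (0.83), *Gfra2* and *Arhgef10* (0.82), and *Lef1* had too few UMIs to be compared.

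Related genes were followed in 6 lists. None of 22 other fibroblast transcription factors with at least 50 UMIs was 2-fold higher or lower in DTX fibroblast-like cells (median log2 ratio 0.21), and the same count of 0 was found for 6 partners and inhibitors of Twist proteins (0.21), 14 genes of retinoid handling (0.01), 15 imprinted genes (-0.08) and 19 relatives of *Dpp4* and surface markers (0.27). Among 27 genes of the Wnt pathway (median 0.06) 1 was at least 2-fold higher and 0 were lower. It was *Wif1*, a secreted inhibitor of Wnt ligands, with 295 control and 453 DTX UMIs and a log2 ratio of 2.34 (interval 2.25 to 2.68). *Wif1* was concentrated in cluster 3, at 60.7 CPM (control) and 184 CPM (DTX). The median over all 11813 genes was 0.12, with 2.66% of them at least 2-fold higher and 1.38% at least 2-fold lower. Counts of 0 or 1 in lists of these sizes are near those shares and do not set the lists apart.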

How the data were processed

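The authors made the UMI counts with Cell Ranger (version 6.1.1 per the submitters' notes, whereas the paper's methods name another version) against mm10 and deposited 1 filtered matrix of raw counts per library from 10x Genomics 3′ chemistry. The methods state technical but no biological replicates, and 1 matrix per group was analysed. A minimum of 500 detected genes and a ceiling of 6% mitochondrial UMIs were set per cell (8326 of 12058 control and 7188 of 11031 DTX barcodes). Scrublet's own threshold removed 382 control doublets. It called 0% in the DTX library, so there the 575 cells with the top 8% of scores were removed.

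Cells were clustered in Seurat 5.3.0 (2000 variable genes, 30 components, resolution 0.2) with the members left out, and the X-like names came from fixed marker lists. UMIs were summed per cell group and library and divided by all UMIs of that group (CPM). Intervals are exact Poisson for CPM, exact conditional binomial for ratios (without the added 1 CPM) and Clopper-Pearson for shares, all at 95%. A gene was counted as 2-fold higher or lower at a log2 ratio of 1 in size with at least 50 UMIs. A count of 0 was given an upper limit of 3 counts. For shares of cells with a UMI, each cell was thinned to 2000 UMIs and shallower cells were left out. With 1 library per group no test was made and no p-value is given. The ratio, its interval and the 2-fold call were tested on simulated Poisson counts, and clustering, naming, thinning and co-detection were not. Such counts do not hold the gathering of UMIs in few cells that was seen for members such as *Crabp1* and *Dlk1*. The text names all members, the 3 genes most correlated with each among genes with at least 200 UMIs, listed genes past 2-fold with at least 200 UMIs, the leading genes of clusters, and marker genes used as checks. *Postn*, *Pi16* and *Acta2* in cells with and without a member were chosen after values were seen. The members and lists were chosen with earlier results of these data known. Python 3.11.15, scanpy 1.11.5, scipy 1.17.1 and R 4.3.3 were used.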

Additional observations from a re-analysis of the deposited data

Results flagged for a closer look

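Log2 ratios of DTX over control were compared between classes where a member had at least 50 UMIs and an interval that left out 0. For 3 members these ratios had opposite signs in a pair of cell classes. *Crabp1* also had opposite signs, but on few UMIs. It was at 1.17 in fibroblast-like cells and at -2.18 (-6.18 to -0.58) in pericyte-like cells, from 8 control and 2 DTX UMIs. *Dpp4* was at 0.78 (interval 0.45 to 1.16) in dendritic-like cells and -0.71 (-0.87 to -0.58) in fibroblast-like cells. *Prrx1* was at 0.33 (0.18 to 0.49) in pericyte-like and -0.18 (-0.23 to -0.14) in fibroblast-like cells. *Mest* was at -1.90 (-2.20 to -1.62) in endothelial-like cells, where 6 control cells held 50% of its UMIs, and at 0.24 (0.01 to 0.49) in fibroblast-like cells. With 1 library per group, none of these differences was tested.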

How the results depend on the processing

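The count of 1 member at least 2-fold higher and 0 lower in DTX fibroblast-like cells was the same under all alternatives but 1. With only cells of at most 2000 genes, 534 control and 61 DTX fibroblast-like cells remained, 7 members had at least 50 UMIs, 2 were at least 2-fold lower (*En1* at -1.18 and *Dpp4* at -1.44) and 0 higher (*Crabp1* at 0.59), and 9 of 10 members lay outside their interval. With the DTX clusters weighted by the control mix, an alternative chosen after seeing the data, *Twist2* (0.22), *Mest* (-0.38), *Dlk1* (-0.45) and *Lef1* (-0.04) took the other sign. Leaving out the cluster led by *Cd74* and *Lyz2*, also chosen after seeing the data, left all 10 members within their intervals. Over all alternatives *Crabp1* ranged from 0.59 to 1.37 and *Dpp4* from -1.44 to -0.66. *Mest* ranged from -0.38 to 3.23, *Dlk1* from -2.89 to 0.25 and *Lef1* from -1.5 to 0.12. The counts of members past 2-fold leave out members with under 50 UMIs. The causes were not tested. No paired analysis was possible because each group had 1 library, and for that reason no replicate could be left out. *Lef1*, with 43 and 13 UMIs, was limited by depth.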
